A study of Homo sapiens with 8 samples.

Results

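The expression of 39 genes that encode the enzymes, transporters and regulators of glucose breakdown was followed in prostate cancer cells in which the transcription factor MYCL was added or depleted. The members were taken by gene name from a table of 78691 genes, with the row of most counts used where a name was repeated. They cover glycolysis from hexokinase to lactate export, the entry of pyruvate into the mitochondrion, the pentose phosphate pathway, and the link to glycogen. Measured values played no part in the choice of name, although results of these data were known when the list was drawn up.

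Poly(A)-selected RNA had been sequenced from 8 libraries in 4 groups of 2. C4-2B, an established castration-resistant prostate adenocarcinoma line, was transduced with empty lentivirus (control) or with a lentivirus whose EF1A promoter drives human MYCL, with EGFP joined by a self-cleaving peptide (MYCL). NCI-H660, an established line of neuroendocrine prostate cancer, carried a non-targeting shRNA (shCtrl) or an shRNA against MYCL (shMYCL). The sources used here name both adenoviral and lentiviral shRNA vectors for NCI-H660, and which of them gave these libraries is not settled. Each line stands for itself, the cells with extra MYCL are a transduced population, and p-values measure only the spread between the libraries of a group, which may be technical.

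MYCL itself checked the labels. In C4-2B it was at 11.4 and 13.4 CPM in the control libraries and 3554 and 4018 CPM in the MYCL libraries, and in NCI-H660 at 109.9 and 86.7 CPM in the shCtrl libraries and 10.9 and 12.6 CPM in the shMYCL libraries, where CPM are counts relative to library size after TMM scaling within a line. Added MYCL reached 1363 and 1435 TPM (a level per transcript length), against 64.3 and 48.2 TPM in NCI-H660 shCtrl cells. Library totals ran from 15177058 to 32344150 counts, and mitochondrial genes took 9.63% to 10.7% of counts in C4-2B and 3.50% to 3.83% in NCI-H660. All 9 luminal markers were above 1 TPM in every C4-2B library, and all 9 neuroendocrine markers in every NCI-H660 library. In NCI-H660, 2 luminal markers were also above 1 TPM throughout, the keratins KRT8 and KRT18. In C4-2B, 1 neuroendocrine marker was above 1 TPM throughout, namely DLL3. Of 7 stromal and immune markers, 5 stayed under 1 TPM in every C4-2B library and 5 in every NCI-H660 library, and the list summed to 10.9 to 29.4 TPM in C4-2B, where CD68 was at 8.30 and 10.8 TPM in control and 23.9 and 25.6 TPM in MYCL libraries, and to 4.32 to 5.31 TPM in NCI-H660. The part of CD68-expressing cells in the results was not tested, while PTPRC, the general leukocyte marker, was at 0 in every C4-2B library. In bulk RNA, fewer cells of a type and less RNA per cell cannot be told apart.

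Glycolysis splits glucose into pyruvate in the cytosol. Its early steps spend ATP and its later steps return it. Several steps are carried out by isozymes, which are products of separate genes that catalyse the same reaction but differ in tissue distribution and regulation. Pyruvate is then either reduced to lactate and exported, or carried into the mitochondrion and oxidized by the pyruvate dehydrogenase complex, while the pentose phosphate pathway diverts glucose 6-phosphate toward NADPH and ribose. MYC family proteins bind DNA with their partner MAX at the E-box CACGTG, and the hypoxia-inducible factors bind ACGTG and GCGTG cores, and many glycolytic genes are known targets of both. Primary prostate adenocarcinoma is known for relying less on glycolysis than most cancers, whereas aggressive and neuroendocrine disease is known for a more glycolytic metabolism.

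The DNA just upstream of 1 RefSeq transcript start of each gene was searched for those letters on both strands. This was done because the study changes a MYC family factor and several members rose together in C4-2B. RefSeq windows of 250 bases before the transcript start (GRCh38.p14) were used for 36 of 39 members. For PFKM, PGAM1, GAPDH and PFKP that start lay 3283, 1627, 747 and 422 bases from the canonical Ensembl start. Their windows lie inside the annotated gene, as do some others, and 12 of the 36 were free of exons of their own gene. No window was used for PFKFB2, SLC16A1 or PDP1, and whether RefSeq holds one for PDP1 was not tested. CACGTG was held by 5 of the 36 windows (13.9%, against 6.35% of all 35116 windows), ACGTG outside CACGTG by 14 (38.9%, against 13.2%) and GCGTG by 17 (47.2%, against 32.2%). All 3 motifs contain CG, and the 35116 windows were not matched to those of the members for CG content. What base composition adds to these shares was not tested. A match is a description of the letters, not a site. The windows below belong to members that were called in one of the lines, hold at least 1 match and were free of exons of their own gene (ALDOC, which holds CACGTG, was cut back to the 197 bases outside its exons). Capitals mark a match to any of the 3 motifs on either strand, so that a match on the other strand is printed as its reverse complement. They lie at chr2:74833877-74834126 (plus strand), chr16:30065510-30065759 (plus strand), chr17:28576949-28577145 (minus strand), chrX:78103998-78104247 (plus strand), chr17:82228792-82229041 (plus strand) and chr11:112025158-112025407 (plus strand). 
HK2: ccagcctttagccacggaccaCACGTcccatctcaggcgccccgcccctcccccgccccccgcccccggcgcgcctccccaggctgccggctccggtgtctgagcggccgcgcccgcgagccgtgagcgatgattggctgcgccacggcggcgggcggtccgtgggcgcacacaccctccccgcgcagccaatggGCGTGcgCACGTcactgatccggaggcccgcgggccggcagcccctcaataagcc
ALDOA: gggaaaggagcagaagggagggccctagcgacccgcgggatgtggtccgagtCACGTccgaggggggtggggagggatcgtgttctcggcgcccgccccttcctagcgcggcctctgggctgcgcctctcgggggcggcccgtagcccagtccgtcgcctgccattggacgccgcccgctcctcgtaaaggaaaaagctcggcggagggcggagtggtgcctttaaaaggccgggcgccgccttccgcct
ALDOC: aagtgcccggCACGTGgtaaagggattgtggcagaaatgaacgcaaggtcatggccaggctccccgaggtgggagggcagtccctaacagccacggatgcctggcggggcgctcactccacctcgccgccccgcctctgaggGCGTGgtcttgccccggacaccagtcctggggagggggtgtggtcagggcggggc
PGK1: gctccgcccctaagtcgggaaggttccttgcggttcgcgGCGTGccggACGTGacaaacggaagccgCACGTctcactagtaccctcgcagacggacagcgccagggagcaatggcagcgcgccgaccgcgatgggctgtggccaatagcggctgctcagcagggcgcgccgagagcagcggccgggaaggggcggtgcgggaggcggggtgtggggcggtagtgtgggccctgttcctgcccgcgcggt
SLC16A3: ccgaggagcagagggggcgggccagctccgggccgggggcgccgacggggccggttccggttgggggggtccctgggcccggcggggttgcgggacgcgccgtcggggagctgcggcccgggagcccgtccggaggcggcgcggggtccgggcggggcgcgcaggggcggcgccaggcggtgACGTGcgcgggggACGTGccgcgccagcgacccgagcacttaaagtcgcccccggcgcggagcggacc
DLAT: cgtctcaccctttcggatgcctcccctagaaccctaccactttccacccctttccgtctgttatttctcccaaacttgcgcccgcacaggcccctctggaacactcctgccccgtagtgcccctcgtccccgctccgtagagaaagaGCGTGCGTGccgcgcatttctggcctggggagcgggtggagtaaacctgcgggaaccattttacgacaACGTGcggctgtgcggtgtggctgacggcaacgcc

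The HK2, PGK1 and SLC16A3 windows each hold 2 ACGTG matches, and that of ALDOC holds the only CACGTG among the 6 printed. DLAT, the member that was lower with MYCL in C4-2B, holds matches as well. HK2 (ENSG00000159399.11, chr2:74834127-74893359) starts at the base after its window. The PFKP and PGM1 windows, also of called genes, hold none of the 3 motifs. Those of GPI, ENO1, ENO2, MPC1 and PDK3, called too, hold matches but overlap exons of their own gene and are not printed. LDHA, with 2 CACGTG matches in its window, and GAPDH, PDHB and PGM2, with 1 each, were called in neither line. Of the members whose windows hold CACGTG, only ALDOC was called.

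Addition of MYCL to C4-2B cells raised enzymes of several glycolytic steps, while TPI1, GAPDH, PGAM1, PKM and LDHA were not called. Of the 38 members tested, 10 were called higher (26.3%) and 1 lower (2.63%), where a call needed a Benjamini-Hochberg p below 0.05 (edgeR quasi-likelihood fit) together with a log2 fold change of 0.5 or more in either direction. Across the 16866 genes in the fit the same rule called 11.8% higher and 8.12% lower. The 10 were HK2, GPI, PFKP, ALDOA, ALDOC, PGK1, ENO1, ENO2, PGM1 and PDP1, and the member that fell was DLAT. The median log2 fold change of the 38 members was 0.11, against a median close to 0 over all genes. FBP1 had too few counts to be tested. On the TPM scale, where the median of all genes moved by -0.14, 6 members were called higher and 2 lower by limma, against 1006 and 1997 of all genes, and the members' median lay 0.11 above that of all genes on each scale.

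Depletion of MYCL in NCI-H660 cells moved fewer of these genes. Of the 38 members tested, 4 were called lower (10.5%), namely HK2, MPC1, SLC16A3 and PDK3, and 2 higher (5.26%), namely PFKP and SLC16A1. Over all 16980 genes tested, 8.99% were called lower and 7.18% higher, so the members' shares lay near the background in both directions. Their median log2 fold change was -0.05. LDHB had too few counts to be tested. Without shCtrl replicate 1 no member was called higher and 5 were called lower. HK2 was the only member called in opposite directions by addition and by depletion of MYCL, and PFKP was called higher in both.

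**Figure D1:**
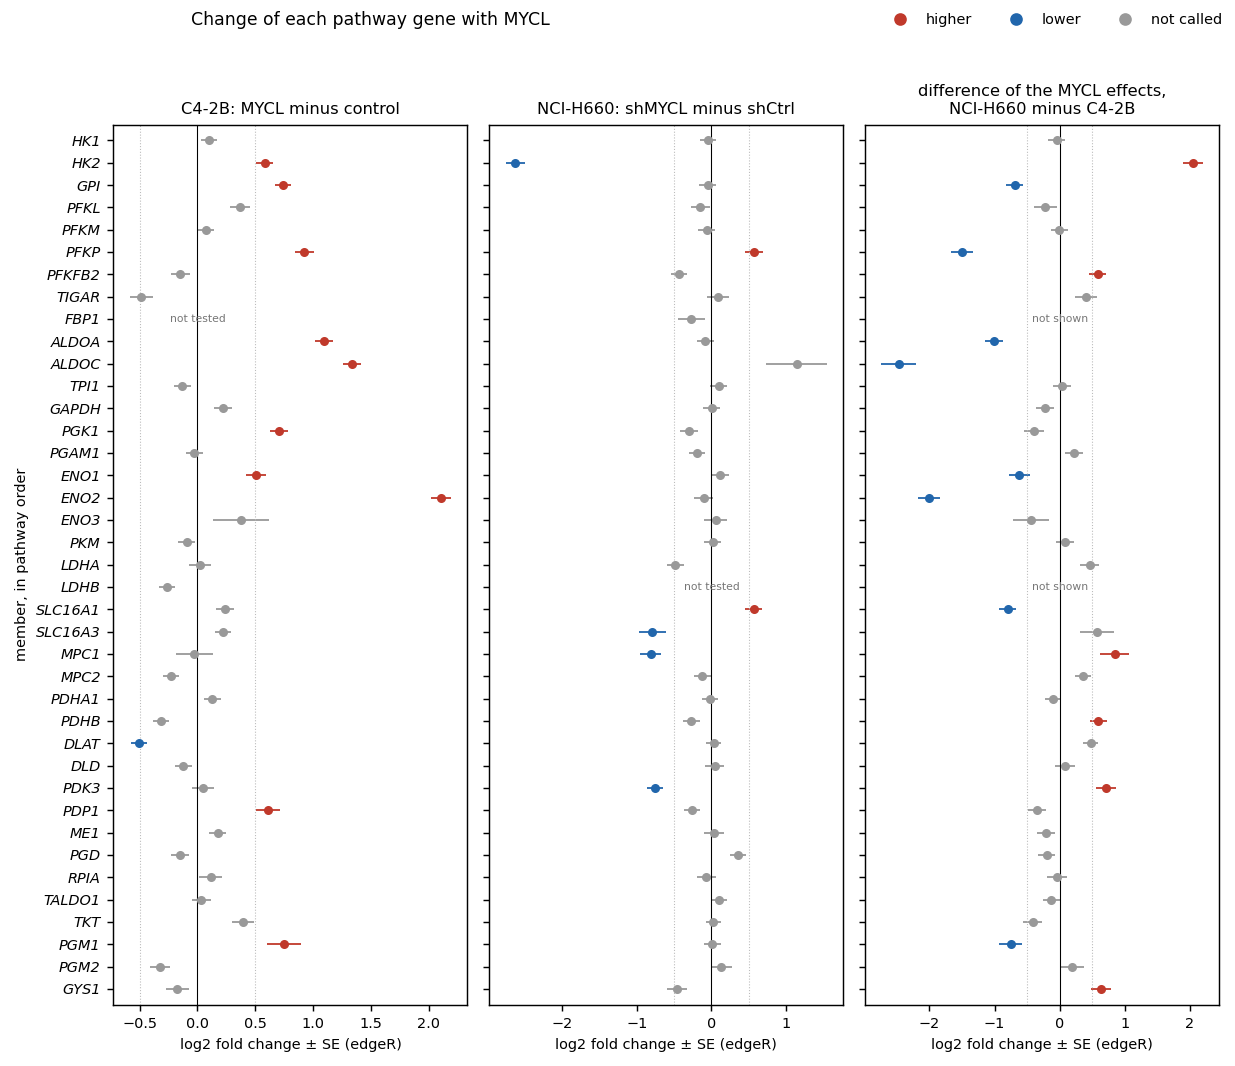
Log2 fold change of each member in pathway order (points, with SE as bars, edgeR) in C4-2B with MYCL against control, in NCI-H660 with shMYCL against shCtrl, and as the difference between the lines of the effect of high against low MYCL. Red and blue points are called higher and lower, grey points are not called and dotted lines mark a log2 fold change of 0.5. ENO2 stands apart on the left at 2.11, and HK2 in the middle at -2.63.

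Hexokinase traps glucose in the cell by phosphorylation, HK1 being the widely expressed form and HK2 the inducible form of muscle, fat and many tumours. HK2 was at 91.5 and 95.7 CPM in the control libraries and 144 and 135 CPM in the MYCL libraries of C4-2B, and the groups did not overlap (log2 fold change 0.58 ± 0.07, adjusted p = 0.000537, edgeR). In NCI-H660 it was at 141 and 179 CPM in the shCtrl libraries and 26.7 and 25.3 CPM in the shMYCL libraries, a 6.17-fold fall (log2 fold change -2.63 ± 0.13, adjusted p = 4.29e-09, edgeR). This was the largest change of any member in NCI-H660, and it lay between -2.78 and -2.44 when any library was left out. The call of HK2 in C4-2B was lost in limma on TPM, where the log2 fold change was as low as 0.42. HK1 was at 216 and 218 CPM in the control libraries and 229 and 235 CPM in the MYCL libraries and at 109 and 119.6 CPM in the shCtrl libraries and 104 and 118 CPM in the shMYCL libraries, with log2 fold changes of 0.10 and -0.05 and no call in either line.

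The make-up of the hexokinase step was taken as a share of the summed TPM of HK1 and HK2. HK2 made up 21.4% ± 0.605 of the step in C4-2B control cells (SD, n = 2 as for all shares here) and 27.6% ± 1.31 with MYCL. In NCI-H660 it made up 46.5% ± 2.67 with shCtrl and 12.8% ± 1.33 with shMYCL. The log2 ratio of HK2 to HK1, from TPM with a pseudocount of 1, was -2.51 and -2.74 against -0.31 and -0.09 in the shMYCL and shCtrl libraries. The groups did not overlap, and the exact permutation test (two-sided) gave p = 0.333, which is the smallest p that 2 libraries against 2 allow, so none of the isozyme ratios could pass a threshold. Counted without regard to length, HK2 made up 58.2% of hexokinase counts in shCtrl cells, so which isozyme led there depended on the scale.

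Phosphoglucose isomerase, the product of GPI, converts glucose 6-phosphate to fructose 6-phosphate. GPI was at 872 and 862 CPM in the control libraries and 1414 and 1488 CPM in the MYCL libraries (log2 fold change 0.74 ± 0.07, adjusted p = 0.000119, edgeR) and at 994 and 1192 CPM in the shCtrl libraries and 1031 and 1082 CPM in the shMYCL libraries (log2 fold change -0.05). It was thus higher by 1.67-fold with MYCL in C4-2B and not called in NCI-H660, where the groups overlapped.

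Phosphofructokinase commits sugar to glycolysis, and its subunits PFKL, PFKM and PFKP are named for liver, muscle and platelet. PFKP was at 90.8 and 86.7 CPM in the control libraries and 159.7 and 178 CPM in the MYCL libraries of C4-2B (log2 fold change 0.93 ± 0.08, adjusted p = 8.49e-05, edgeR). In NCI-H660 PFKP was at 195 and 262 CPM in the shCtrl libraries and 327 and 350.3 CPM in the shMYCL libraries (log2 fold change 0.57 ± 0.13, adjusted p = 0.00416, edgeR). PFKP therefore rose both where MYCL was added and where it was depleted, and without shCtrl replicate 1 its log2 fold change in NCI-H660 was 0.38 and no longer called. PFKL was at 86.6 and 84.9 CPM in the control libraries and 103 and 119 CPM in the MYCL libraries, a log2 fold change of 0.37 that stayed under the minimum for a call, and at 147 and 196 CPM in the shCtrl libraries and 148 and 163 CPM in the shMYCL libraries. PFKM was at 192 and 199 CPM in the control libraries and 199 and 212 CPM in the MYCL libraries and at 41.1 and 39.3 CPM in the shCtrl libraries and 36.5 and 40.3 CPM in the shMYCL libraries, and its groups overlapped in both lines.

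PFKM was the leading phosphofructokinase transcript of C4-2B and PFKP that of NCI-H660. PFKM made up 58.9% ± 2.33 of the step's TPM in C4-2B control cells and 45.3% ± 3.77 with MYCL, while PFKP went from 21.98% ± 1.46 to 34.4% ± 2.68. In NCI-H660 PFKP made up 52.2% ± 2.75 with shCtrl and 64.3% ± 2.86 with shMYCL, and PFKM 12.6% ± 4.35 and 9.29% ± 3.48. The length that turns counts into TPM was not constant for PFKM, whose TPM per count, relative to the members' median, spanned 0.74 on the log2 scale over the 8 libraries, but on counts PFKM still made up 52.8% of the step in C4-2B control cells. Summed over its 3 genes the step stood at 201 ± 7.77 TPM in C4-2B control, 222 ± 22.1 with MYCL, 296 ± 33.1 in shCtrl and 361 ± 32.5 in shMYCL cells (SD).

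Of the members that set or reverse phosphofructokinase flux, none was called in either line. PFKFB2, which makes and removes the activator fructose 2,6-bisphosphate, was at 62.6 and 65.9 CPM in the control libraries and 61.014 and 54.8 CPM in the MYCL libraries and at 80.1 and 75.2 CPM in the shCtrl libraries and 56.4 and 58.8 CPM in the shMYCL libraries, with log2 fold changes of -0.15 and -0.43. TIGAR, a p53 target that removes that activator, was at 30.1 and 28.9 CPM in the control libraries and 22.3 and 19.7 CPM in the MYCL libraries (log2 fold change -0.49 ± 0.10, adjusted p = 0.00554, edgeR), just under the minimum for a call, and at 15.2 and 16.4 CPM in the shCtrl libraries and 17.1 and 16.4 CPM in the shMYCL libraries. FBP1, the gluconeogenic fructose bisphosphatase, was at 10.1 and 9.52 CPM in the shCtrl libraries and 8.29 and 8.05 CPM in the shMYCL libraries in NCI-H660.

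Aldolase cleaves fructose 1,6-bisphosphate, ALDOA being the ubiquitous and muscle form and ALDOC the brain form. Both rose with MYCL in C4-2B. ALDOA was at 809.6 and 776 CPM in the control libraries and 1601 and 1785 CPM in the MYCL libraries (log2 fold change 1.09 ± 0.08, adjusted p = 4.11e-05, edgeR), and ALDOC was at 83.7 and 78.7 CPM in the control libraries and 196 and 213 CPM in the MYCL libraries (log2 fold change 1.33 ± 0.08, adjusted p = 1.71e-05, edgeR). In NCI-H660 ALDOA was at 659 and 790.05 CPM in the shCtrl libraries and 716 and 653 CPM in the shMYCL libraries, with overlapping groups. ALDOC was close to absent there, at 0.944 and 1.24 CPM in the shCtrl libraries and 2.44 and 2.43 CPM in the shMYCL libraries, and its log2 fold change of 1.14 ± 0.41, adjusted p = 0.0518 (edgeR) rested on 16 to 38 counts per library and was not called. It was called higher in the fit of all 4 groups and with at least 10 counts in every library. ALDOC made up 8.28% ± 0.0893 of the step's TPM in C4-2B control cells, 9.68% ± 0.157 with MYCL and 0.139% ± 0.00891 in shCtrl cells. The step as a whole went from 834 ± 18.4 to 1644 ± 40.9 TPM with MYCL in C4-2B and stood at 941 ± 77.9 and 896 ± 64.3 TPM in shCtrl and shMYCL cells (SD). A second annotated gene shares 42.8% of ALDOA's exon bases on the same strand and took 995 to 1464 counts per library, and with both summed the log2 fold change in C4-2B was 1.06.

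The shared trunk from triose phosphate to phosphoglycerate was uneven. PGK1, phosphoglycerate kinase, makes the first ATP returned by the pathway and was at 679.6 and 608 CPM in the control libraries and 1040 and 1055 CPM in the MYCL libraries (log2 fold change 0.70 ± 0.08, adjusted p = 0.000265, edgeR). In NCI-H660 PGK1 was at 1866 and 2281 CPM in the shCtrl libraries and 1571 and 1794 CPM in the shMYCL libraries, where the groups did not overlap but the log2 fold change of -0.30 was not called. GAPDH, the dehydrogenase often used as a reference gene, was at 3220 and 3133 CPM in the control libraries and 3479 and 3942 CPM in the MYCL libraries (log2 fold change 0.22, not called). Neither TPI1, triose phosphate isomerase, nor PGAM1, phosphoglycerate mutase, was called, with log2 fold changes of -0.13 and -0.03 in C4-2B and 0.10 and -0.19 in NCI-H660. PKM, the pyruvate kinase whose splice forms are not separated in these gene counts, had -0.09 and 0.02. Processed pseudogenes of members with such copies took at most 0.778% of the summed counts of member and copies in any library, the highest being those of TPI1.

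Enolase gave the largest change of any member in C4-2B. ENO1 is the ubiquitous form, ENO2 is the neuronal form known as neuron-specific enolase and used as a serum marker of neuroendocrine tumours, and ENO3 is the muscle form. ENO2 (ENSG00000111674.10, chr12:6913745-6923698) was at 13.5 and 14.4 CPM in the control libraries and 60.8 and 59.1 CPM in the MYCL libraries, a 4.31-fold rise (log2 fold change 2.11 ± 0.09, adjusted p = 3.91e-06, edgeR). It kept its call in every alternative tried, with log2 fold changes from 1.79 to 2.15. In NCI-H660, where ENO2 was far higher, it was at 268 and 350.2 CPM in the shCtrl libraries and 274 and 302 CPM in the shMYCL libraries, and the groups overlapped (log2 fold change -0.10 ± 0.12, adjusted p = 0.584, edgeR).

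ENO1 was at 2049 and 1796 CPM in the control libraries and 2606 and 2853 CPM in the MYCL libraries of C4-2B (log2 fold change 0.51 ± 0.08, adjusted p = 0.00201, edgeR), at the minimum for a call and under it in 7 of 13 alternatives, and at 2630 and 3284 CPM in the shCtrl libraries and 3023 and 3379 CPM in the shMYCL libraries in NCI-H660. ENO3 was low, at 3.35 and 4.58 CPM in the control libraries and 5.26 and 4.98 CPM in the MYCL libraries and at 20.4 and 25.9 CPM in the shCtrl libraries and 20.9 and 27.3 CPM in the shMYCL libraries, and was called in neither line. ENO1 dominated the step in every library, between 91.8% and 99.3% of its TPM. ENO2 made up 0.536% ± 0.0694 in C4-2B control, 1.55% ± 0.121 with MYCL, 7.08% ± 0.223 in shCtrl and 6.12% ± 0.0455 in shMYCL cells. In TPM, ENO2 went from 8.06 ± 0.361 to 30.4 ± 2.0013 with MYCL, against 243 ± 35.1 in shCtrl cells (SD). ENO3 was at 3.68 ± 0.661 TPM in C4-2B control and 30.959 ± 3.75 TPM in shCtrl cells.

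**Figure D2:**
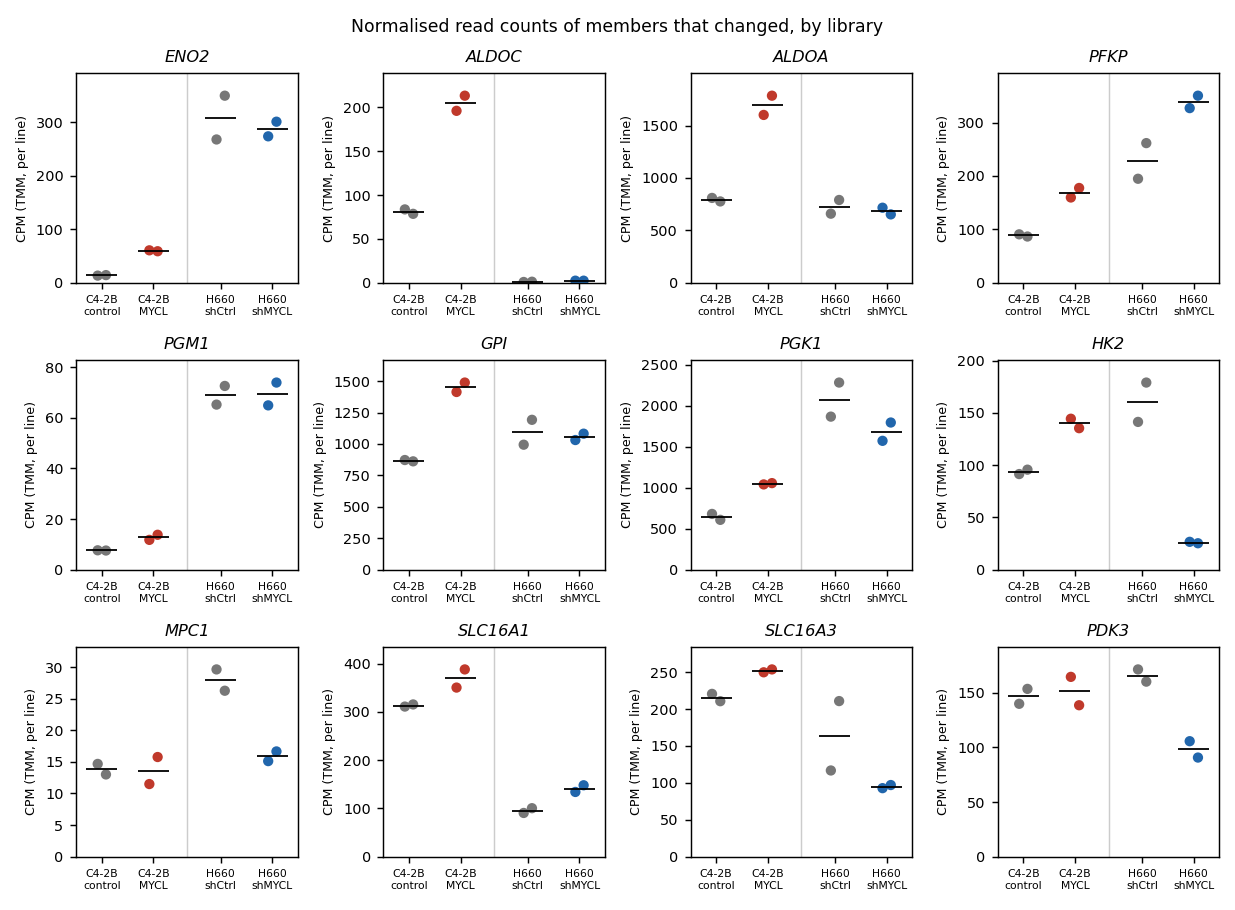
Normalised read counts (CPM, TMM-scaled within each line, axes from 0) of 12 called members in each of the 8 libraries. Points are libraries and black lines are group means. The MYCL libraries lie above the control libraries for ENO2, ALDOC, ALDOA, PFKP, PGM1, GPI, PGK1 and HK2, and HK2 is at 26.7 and 25.3 CPM in the shMYCL libraries against 141 and 179 CPM in the shCtrl libraries.

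Lactate dehydrogenase interconverts pyruvate and lactate, with LDHA favouring lactate and LDHB pyruvate. LDHA was at 1724 and 1402 CPM in the control libraries and 1570 and 1608 CPM in the MYCL libraries of C4-2B, with overlapping groups, and at 1384 and 1493 CPM in the shCtrl libraries and 963 and 1098 CPM in the shMYCL libraries (log2 fold change -0.48 ± 0.11, adjusted p = 0.00469, edgeR), where the groups did not overlap but the change stayed under the minimum for a call. LDHB was at 631 and 616 CPM in the control libraries and 506 and 535 CPM in the MYCL libraries (log2 fold change -0.26 ± 0.07, adjusted p = 0.0182, edgeR; under the minimum). In NCI-H660 LDHB gave 0, 0, 0 and 2 counts per library, so that LDHA held all lactate dehydrogenase TPM in the shCtrl libraries. In C4-2B LDHA made up 65.97% ± 2.87 in control and 70.2% ± 0.537 in MYCL cells.

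Lactate leaves the cell through the monocarboxylate transporters MCT1, from SLC16A1, and MCT4, from SLC16A3. They moved apart when MYCL was depleted. SLC16A1 was at 90.3 and 100.2 CPM in the shCtrl libraries and 134 and 148 CPM in the shMYCL libraries (log2 fold change 0.56 ± 0.11, adjusted p = 0.00147, edgeR). SLC16A3 was at 117 and 211 CPM in the shCtrl libraries and 92.7 and 96.966 CPM in the shMYCL libraries (log2 fold change -0.79 ± 0.18, adjusted p = 0.00556, edgeR). The SLC16A3 fall leaned on shCtrl replicate 2, which stood far above replicate 1, and was -0.30 and not called without it, against -1.15 without replicate 1. That call was lost in 5 of 13 alternatives, DESeq2 and the 3 forms of limma on TPM among them. The SLC16A1 call was lost without shCtrl replicate 1 and without shMYCL replicate 2. SLC16A3 made up 67.8% ± 7.78 of the TPM of the pair in shCtrl and 46.6% ± 1.23 in shMYCL cells. In C4-2B, SLC16A1 was at 311 and 315 CPM in the control libraries and 350.2 and 388 CPM in the MYCL libraries and SLC16A3 at 221 and 211 CPM in the control libraries and 249.9 and 254 CPM in the MYCL libraries, log2 fold changes of 0.24 and 0.22 that were not called.

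Pyruvate enters mitochondria through a carrier of MPC1 and MPC2, and in NCI-H660 only the MPC1 subunit was called when MYCL was depleted. MPC1 was at 29.7 and 26.3 CPM in the shCtrl libraries and 15.1 and 16.7 CPM in the shMYCL libraries (log2 fold change -0.81 ± 0.14, adjusted p = 0.000502, edgeR), whereas MPC2 was at 63.1 and 64.9 CPM in the shCtrl libraries and 61.3 and 56.5 CPM in the shMYCL libraries (log2 fold change -0.12, not called). In C4-2B, MPC1 was at 14.7 and 13.022 CPM in the control libraries and 11.5 and 15.8 CPM in the MYCL libraries and MPC2 at 614 and 570.4 CPM in the control libraries and 506 and 504 CPM in the MYCL libraries, and neither was called. The subunits of pyruvate dehydrogenase, which makes acetyl-CoA, did not move together. DLAT, its acetyltransferase core, was at 274 and 266 CPM in the control libraries and 186 and 195 CPM in the MYCL libraries (log2 fold change -0.50 ± 0.07, adjusted p = 0.000841, edgeR), and this call at the minimum was lost in 4 of 13 alternatives. PDHB, an E1 subunit, was at 137 and 134 CPM in the control libraries and 108 and 109.8 CPM in the MYCL libraries (log2 fold change -0.32) and was not called, nor were PDHA1, the other E1 subunit, at 0.13 and DLD, the dihydrolipoyl dehydrogenase, at -0.12. In NCI-H660 the 4 subunits had log2 fold changes between -0.27 and 0.05, with none called.

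Kinases switch the complex off and phosphatases switch it on. PDK3, such a kinase, was at 172 and 160.4 CPM in the shCtrl libraries and 106 and 90.8 CPM in the shMYCL libraries (log2 fold change -0.76 ± 0.11, adjusted p = 0.000168, edgeR) and at 140.1 and 154 CPM in the control libraries and 165 and 139 CPM in the MYCL libraries of C4-2B. The PDK3 fall was -0.18 at its smallest, in limma on TPM, where its length per count spanned 1.20 on the log2 scale over the libraries, the widest of the members. In C4-2B the log2 fold change of PDK3 was 0.05 on counts, but PDK3 was called lower in all 3 forms of limma on TPM (-0.54 to -0.56). PDP1, the phosphatase, was at 19.8 and 23.1 CPM in the control libraries and 33.5 and 31.7 CPM in the MYCL libraries (log2 fold change 0.61 ± 0.11, adjusted p = 0.00232, edgeR; lost in 4 of 13 alternatives, the 3 forms of limma on TPM and without control replicate 1, with adjusted p up to 0.161) and at 241 and 236 CPM in the shCtrl libraries and 195 and 204 CPM in the shMYCL libraries (log2 fold change -0.26, not called). ME1, the cytosolic malic enzyme that yields pyruvate and NADPH, was at 93.004 and 99.3 CPM in the control libraries and 105 and 112 CPM in the MYCL libraries, and its log2 fold changes of 0.18 and 0.04 were not called.

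None of the 4 pentose phosphate members was called in either line. TKT, transketolase, was at 359 and 366 CPM in the control libraries and 427 and 525 CPM in the MYCL libraries, a log2 fold change of 0.39. PGD, the oxidative 6-phosphogluconate dehydrogenase, was at 134 and 137 CPM in the shCtrl libraries and 163 and 183 CPM in the shMYCL libraries, a log2 fold change of 0.35 ± 0.11, adjusted p = 0.0221 (edgeR). RPIA, ribose 5-phosphate isomerase, and TALDO1, transaldolase, had log2 fold changes between -0.07 and 0.12 over both lines.

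Phosphoglucomutase links glucose 6-phosphate to glycogen, and of the members named for it PGM1 was called in C4-2B and PGM2 was not. Enzyme activity was not measured, so their shares are shares of transcripts only. PGM1 and PGM2 were paired by name, and whether they do the same work in these cells was not tested. PGM1 was at 7.65 and 7.56 CPM in the control libraries and 11.8 and 13.8 CPM in the MYCL libraries (log2 fold change 0.75 ± 0.15, adjusted p = 0.00443, edgeR). The PGM1 call was lost in limma on log2(TPM + 1), with or without the TPM filter. PGM2 was at 69.953 and 62.8 CPM in the control libraries and 50.4 and 55.9 CPM in the MYCL libraries (log2 fold change -0.32, not called). PGM1 made up 11.6% ± 0.73 of their TPM in control and 21.7% ± 0.472 in MYCL cells, and the log2 ratio of PGM2 to PGM1 was 1.72 and 1.68 against 2.74 and 2.60 in MYCL and control libraries. In NCI-H660 PGM1 led, with 75.01% ± 5.95 in shCtrl and 72.5% ± 2.605 in shMYCL cells, at 65.2 and 72.6 CPM in the shCtrl libraries and 64.9 and 73.9 CPM in the shMYCL libraries, and PGM2 was at 27.969 and 21.4 CPM in the shCtrl libraries and 26.7 and 27.3 CPM in the shMYCL libraries. GYS1, the glycogen synthase of muscle and most tissues, was at 21.1 and 20.4 CPM in the shCtrl libraries and 15.006 and 15.1 CPM in the shMYCL libraries (log2 fold change -0.46 ± 0.14, adjusted p = 0.0224, edgeR; under the minimum) and at 36.8 and 32.974 CPM in the control libraries and 32.3 and 29.7 CPM in the MYCL libraries.

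**Figure D3:**
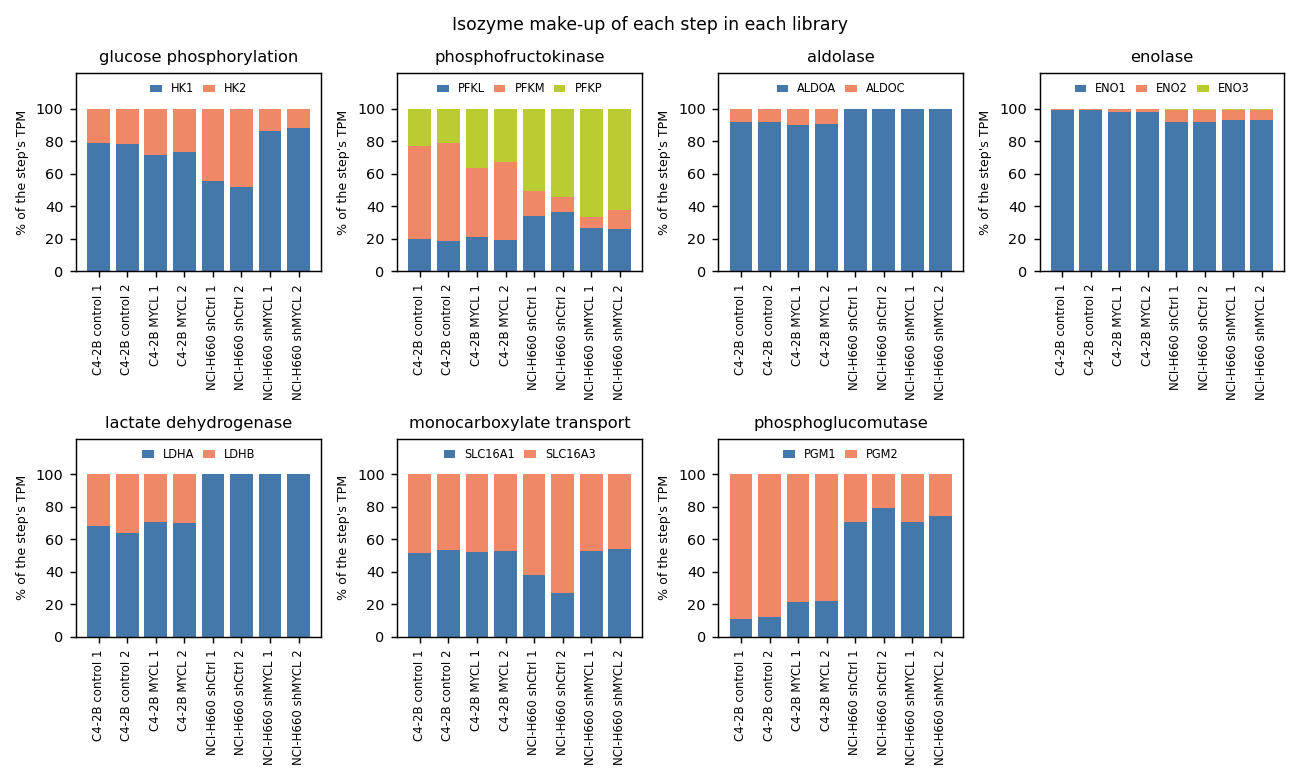
Share of each isozyme in the summed TPM of its step, in percent, in each of the 8 libraries (stacked bars from 0). HK2 narrows from 46.5% with shCtrl to 12.8% with shMYCL (group means), and LDHB is visible in C4-2B libraries only. The phosphoglucomutase panel pairs PGM1 and PGM2 by name. Its transcripts change from mostly PGM2 in C4-2B to mostly PGM1 in NCI-H660, which does not show which of them carries the step.

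The control cells of the lines were then compared, in a fit of all 4 groups, to ask how the baseline differed between adenocarcinoma and neuroendocrine cells. Of the 39 members, 10 were called higher in NCI-H660 (25.6%) and 20 lower (51.3%), against 36.5% and 33.3% of all 19605 genes tested, and the members' median log2 difference was -0.56. LDHB and FBP1 passed the filter on low counts through 1 line each and so had to differ. On the TPM scale, where the median of all genes moved by 0.53, limma called 15 members higher and 13 lower, against 8749 and 3560 of all genes. The members' median lay 0.63 under that of all genes there, and no member called on counts changed sign. With 1 line of each kind, lineage and cell line cannot be told apart, and the mitochondrial share of counts given above also differed between the lines.

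ENO1, ALDOA and LDHA led their steps by TPM in both lines, and it was other isozymes of these steps that were called between the lines on counts. The leaders had an adjusted p below 0.05 (edgeR) but stayed under the fold minimum, with log2 differences of 0.46 for ENO1, -0.29 for ALDOA and -0.28 for LDHA. ENO2 was at 7.8023 and 8.31 TPM in C4-2B control libraries and 218 and 267 TPM in NCI-H660 shCtrl libraries, 19.9-fold higher in NCI-H660 on the count scale (log2 difference 4.31 ± 0.13, adjusted p = 4.08e-12, edgeR), and ENO3 was at 3.22 and 4.15 TPM in C4-2B control libraries and 28.3 and 33.6 TPM in NCI-H660 shCtrl libraries (log2 difference 2.400). ALDOC lay the other way, at 70.7 and 67.5 TPM in C4-2B control libraries and 1.18 and 1.45 TPM in NCI-H660 shCtrl libraries (log2 difference -6.36 ± 0.15, adjusted p = 4.15e-13, edgeR). LDHB (ENSG00000111716.15, chr12:21635342-21757857) was at 718 and 710.5 TPM in C4-2B control libraries and 0 and 0 TPM in NCI-H660 shCtrl libraries and was at least 3708-fold lower in NCI-H660, taking 3 counts per library as the floor. A same-strand gene that shares 33.4% of LDHB's exon bases took no counts in NCI-H660 either. FBP1 was the reverse, at 2 and 1 counts in C4-2B control and 172 and 176 counts in shCtrl libraries, a ratio of 183 per total count (exact 95% counting interval 62.2 to 892, which covers counting error only).

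Along the rest of the pathway, HK2 (0.62), PFKL (0.84), PFKP (1.201), PGK1 (1.53), PGM1 (3.02), PDP1 (3.32) and MPC1 (0.85) were also higher in NCI-H660, as log2 differences of counts. PGM1 was at 4.31 and 4.31 TPM in C4-2B control libraries and 52.1 and 54.4 TPM in NCI-H660 shCtrl libraries, and PDP1 was at 5.76 and 6.81 TPM in C4-2B control libraries and 105 and 97.8 TPM in NCI-H660 shCtrl libraries. The lower side held MPC2, at 1017 and 910.2 TPM in C4-2B control libraries and 130.1 and 130.1 TPM in NCI-H660 shCtrl libraries (log2 difference -3.37 ± 0.09, adjusted p = 1.38e-12, edgeR). The subunits of the pyruvate carrier thus went in opposite directions between the lines, MPC1 being at 27.3 and 24.7 TPM in C4-2B control libraries and 78.8 and 64.955 TPM in NCI-H660 shCtrl libraries. An antisense neighbour, DCAF6, shares 21.8% of MPC2's exon bases, and reads of the pair cannot be told apart if strand was not used. All 4 pyruvate dehydrogenase subunits were lower in NCI-H660, with log2 differences from -2.75 for DLD to -0.85 for PDHB, on the count scale. Also lower were ME1 (-2.48), PFKM (-2.44), SLC16A1 (-1.88), PGM2 (-1.59), PGAM1 (-1.57), TALDO1 (-1.498), GAPDH (-1.303), HK1 (-1.08), TIGAR (-1.06), GYS1 (-0.91), TPI1 (-0.903), PGD (-0.65) and SLC16A3 (-0.56). PDHB, HK1, TIGAR, GYS1, TPI1 and PGD lost their calls in all 3 forms of limma on TPM, where PDHB came as near to 0 as -0.24. The SLC16A3 difference was lost in 5 of 16 alternatives, which include these forms and DESeq2, and was -0.19 without shCtrl replicate 1. The HK2 difference was 0.45 and not called without shCtrl replicate 2.

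The 9 members not called between the lines were GPI, ALDOA, ENO1, PKM, LDHA, TKT, RPIA, PFKFB2 and PDK3, with log2 differences from -0.33 to 0.46 on the count scale. GPI, ENO1, PKM, RPIA and PFKFB2 were called higher in NCI-H660 in all 3 forms of limma on TPM, with ENO1 up to 1.07 and PKM up to 0.88, and ENO1 was called in 7 of 16 alternatives, among them DESeq2. The 9 include the most abundant transcript of several steps. ENO1 was at 1592 and 1409 TPM in C4-2B control libraries and 2899 and 3394 TPM in NCI-H660 shCtrl libraries, LDHA at 1527 and 1260 TPM in C4-2B control libraries and 1746 and 1751 TPM in NCI-H660 shCtrl libraries and PKM at 702 and 657 TPM in C4-2B control libraries and 1202 and 1300 TPM in NCI-H660 shCtrl libraries. By TPM, the 39 members held between 1.40% and 1.64% of all TPM in every library.

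**Figure D4:**
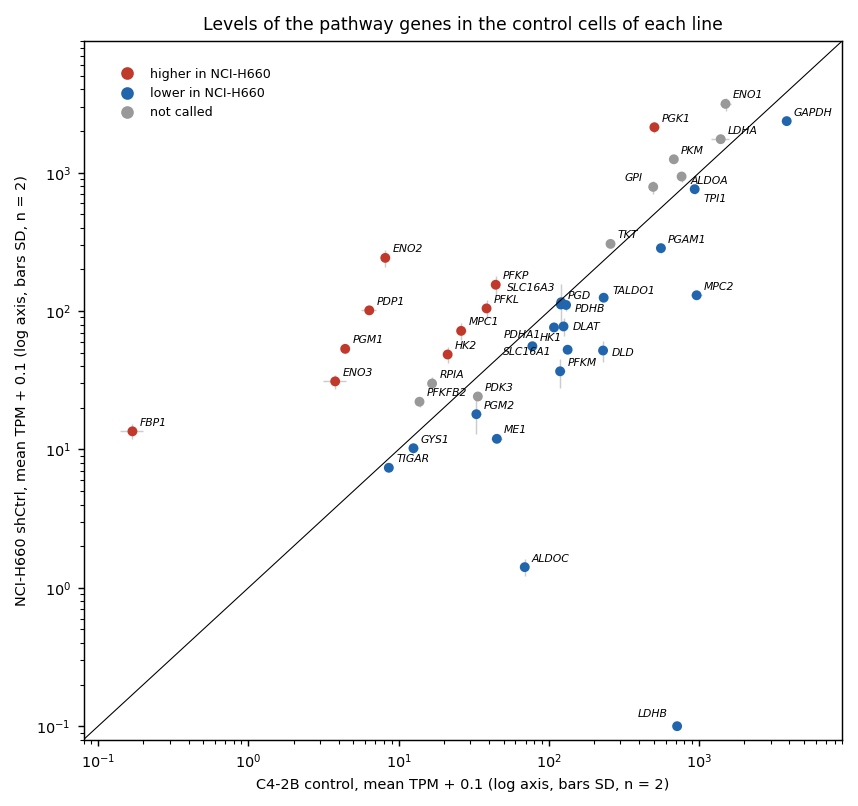
Mean TPM of each member in C4-2B control (horizontal) and NCI-H660 shCtrl cells (vertical), with 0.1 added and both axes on a log scale; bars are SD (n = 2) and the line marks equal TPM. Colours give the call of the count-based fit. ENO2, PDP1, PGM1, ENO3 and FBP1 lie far above the line, and ALDOC, MPC2 and LDHB far below it.

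Whether MYCL acted alike in the lines was tested as an interaction, the effect of high against low MYCL in NCI-H660 (shCtrl minus shMYCL) minus that in C4-2B (MYCL minus control). Of the 39 members, 6 were called positive (15.4%, against 8.33% of 19605 genes) and 8 negative (20.5%, against 9.59%). The negative side was made of members called higher with MYCL in C4-2B and not called lower with shMYCL, led by ALDOC (-2.47 ± 0.26, adjusted p = 7e-05, edgeR), ENO2 (-2.001 ± 0.17, adjusted p = 1.55e-05, edgeR) and PFKP (-1.49 ± 0.17, adjusted p = 0.000106, edgeR), with SLC16A1 as the exception that was called in NCI-H660 only. The NCI-H660 side of the ALDOC value rested on 16 to 38 counts per library, and ALDOC was not called there. HK2 led the positive side (2.05 ± 0.16, adjusted p = 5.62e-06, edgeR), since it changed with MYCL in the same direction in both lines but by more in NCI-H660. PGK1 and PDP1, called in C4-2B but not in NCI-H660, did not differ in this test past the threshold (-0.40 ± 0.15, adjusted p = 0.0821 and -0.35 ± 0.13, adjusted p = 0.0851, edgeR).

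Genes of the same pathways outside the 39 were taken from a list of 74 names of enzymes, transporters and regulators, drawn up with earlier results of these data known. In C4-2B, 13 of the 48 tested were called higher (27.1%) and 2 lower (4.17%), against the 11.8% and 8.12% of all genes, with a median log2 fold change of 0.17. In NCI-H660, 4 of 49 were called higher (8.16%) and 6 lower (12.2%), near the 7.18% and 8.99% of all genes, with a median of -0.16. SLC2A1, which encodes the glucose transporter GLUT1, was at 55.9 and 57.7 CPM in the control libraries and 102 and 113 CPM in the MYCL libraries (log2 fold change 0.92 ± 0.08, adjusted p = 9.59e-05, edgeR) and at 97.7 and 126 CPM in the shCtrl libraries and 29.3 and 23.954 CPM in the shMYCL libraries (log2 fold change -2.07 ± 0.14, adjusted p = 1.02e-07, edgeR). SLC2A1 thus moved as HK2 did, up with added and down with depleted MYCL. SLC2A3, the neuronal-type transporter GLUT3, was at 5.13 and 3.32 CPM in the control libraries and 2.39 and 3.83 CPM in the MYCL libraries, was not called, and had too few counts to be tested in NCI-H660.

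PFKFB3, the bifunctional enzyme that favours fructose 2,6-bisphosphate, was at 28.983 and 31.6 CPM in the control libraries and 85.3 and 72.9 CPM in the MYCL libraries and at 145 and 172 CPM in the shCtrl libraries and 51.995 and 49.1 CPM in the shMYCL libraries, log2 fold changes of 1.39 ± 0.10 and -1.65 ± 0.12. Its relative PFKFB4 was at 112 and 145 CPM in the shCtrl libraries and 42.1 and 37.8 CPM in the shMYCL libraries (log2 fold change -1.69), and 0.64 in C4-2B. The glucose transporter gene SLC2A12 was at 8.82 and 8.28 CPM in the control libraries and 19.2 and 20.4 CPM in the MYCL libraries and at 13.9 and 12.013 CPM in the shCtrl libraries and 4.54 and 6.39 CPM in the shMYCL libraries (log2 fold changes 1.21 and -1.24). These 4 genes, SLC2A1, PFKFB3, PFKFB4 and SLC2A12, were called in opposite directions in the lines, as HK2 was. All 4 are among the pathway genes named for the largest called changes in NCI-H660. The share of all genes called in opposite directions in the lines was not worked out, so their number has no background beside it.

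The glycogen phosphorylases, which release glucose from glycogen, rose in C4-2B, PYGL at 32.9 and 37.8 CPM in the control libraries and 79.019 and 78.9 CPM in the MYCL libraries and PYGB at 163 and 175 CPM in the control libraries and 298 and 374 CPM in the MYCL libraries (log2 fold changes 1.16 and 0.99). So did PCK2, the mitochondrial phosphoenolpyruvate carboxykinase, at 70.1 and 80.4 CPM in the control libraries and 153 and 176 CPM in the MYCL libraries (1.13), and LDHD, the D-lactate dehydrogenase, at 18.7 and 22.3 CPM in the control libraries and 36.012 and 41.7 CPM in the MYCL libraries (0.93). In NCI-H660, PYGL and PYGB were not called (log2 fold changes -0.34 and 0.10). The pyruvate dehydrogenase kinase PDK4 was at 7.08 and 5.95 CPM in the shCtrl libraries and 20.4 and 20.9 CPM in the shMYCL libraries (1.66), opposite in direction to PDK3, and ME3, a mitochondrial malic enzyme, was at 6.79 and 10.7 CPM in the shCtrl libraries and 15.1 and 13.6 CPM in the shMYCL libraries (0.71).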

How the data were processed

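Gene-level read counts from 8 poly(A)-selected paired-end libraries were deposited by the authors as estimated counts without normalization between libraries (34.4% of non-zero values are not whole). TPM values were deposited by the authors as counts per gene length scaled to a common sum, with the length per count differing between libraries by more than 0.3 (log2) for 6 of 37 members with counts in every library. The genome was hg38 per the labels. The aligner and counter are not given in the sources used here.

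Counts were rounded and each line was fitted in edgeR 4.0.16 (R 4.3.3) with TMM scaling, filterByExpr and the quasi-likelihood test, with p-values adjusted by Benjamini-Hochberg over all genes tested; SEs are the fold change (log2) over the root of its F statistic. Baseline and interaction used a fit of all 4 groups. Calls needed a Benjamini-Hochberg p below 0.05 with a log2 fold change of 0.5 or more in size. Library totals ran from 15177058 to 32344150 counts, and replicate libraries differed by more than sampling noise. Isozyme shares and ratios used TPM, the ratios with a pseudocount of 1 and a two-sided exact permutation test over 9 pairs and 3 comparisons.

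The members and lists were chosen with earlier results of these data known. All 39 members are named, in full for steps with several isozymes and for up to 12 called members per line, with up to 6 pathway genes per line (mean log2 CPM of at least 3) and SLC2A1 and SLC2A3. Alternatives were DESeq2 1.42.0, relative log expression factors, other count filters, limma 3.58.1 on TPM (log2 with pseudocounts of 1 or 0.1; genes reaching 1 TPM in 2 libraries, or all genes), other fold minimums, a replicate block, a fit of all groups and each library left out. The scripts were tested on simulated data. Exon overlaps came from GENCODE 44, and upstream windows from RefSeq (GRCh38.p14). Python 3.11.15 was used for tables.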

Additional observations from a re-analysis of the deposited data

Results flagged for a closer look

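Groups of 2 libraries are too small for a test of outlying samples. The effect of high against low MYCL differed between the lines for 14 members, by edgeR's interaction test with Benjamini-Hochberg adjustment over 19605 genes, and the values in brackets are the differences, NCI-H660 minus C4-2B, on the log2 scale. The effect was smaller, or opposite, in NCI-H660 for ALDOC (-2.47), ENO2 (-2.001), PFKP (-1.49), ALDOA (-1.01), SLC16A1 (-0.80), PGM1 (-0.75), GPI (-0.69) and ENO1 (-0.62). It was larger, or of the other sign, in NCI-H660 for HK2 (2.05), MPC1 (0.84), PDK3 (0.71), GYS1 (0.63), PDHB (0.59) and PFKFB2 (0.58). The highest adjusted p among the 14 was 0.0168, and ALDOC rested on 16 to 38 counts per library in NCI-H660. No library was left out of these values, and MPC1, ENO1 and GYS1 missed the threshold on p when some single library was left out, with adjusted p up to 0.0703, 0.0694 and 0.0703. PDHB fell under the fold minimum without shMYCL replicate 1 (0.48) and PFKFB2 without C4-2B MYCL replicate 2 (0.496). The ENO1 call was also lost in the 3 forms of limma on TPM, that of PFKFB2 in 2 of them, and those of GPI, PGM1, MPC1 and GYS1 in the form without the TPM filter. The amount of MYCL, the vectors and the way MYCL was changed also differ between the lines and cannot be told apart from the line.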

How the results depend on the processing

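The labels number the replicates and do not say whether equal numbers mark a pair. Deviations of same-numbered libraries correlated at 0.033 in C4-2B and 0.046 in NCI-H660. With 2 libraries per group, these values cannot settle whether libraries were prepared as pairs, and the main fits did not pair them. With a block for the replicate number, the members called higher and lower numbered 10 and 1 in C4-2B, 3 and 4 in NCI-H660 (where ALDOC became called, at 1.15, adjusted p = 0.0419), 10 and 20 between the lines and 6 and 8 in the interaction. Leaving out 1 library at a time gave 9 to 11 members higher and 0 to 2 lower in C4-2B, 0 to 2 and 3 to 5 in NCI-H660, 9 to 11 and 19 to 20 between the lines, and 4 to 8 and 7 to 9 in the interaction. The 0 in C4-2B came without control replicate 1 and the 0 in NCI-H660 without shCtrl replicate 1 (edgeR, with 0 members at an unadjusted p under 0.05 past the fold minimum in each case, since a fold and not a p was missed).

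The main counts were 10 and 1, 2 and 4, 10 and 20, and 6 and 8. In C4-2B, limma on log2(TPM + 1) gave 6 higher and 2 lower, the same without the TPM filter (6 and 2), and log2(TPM + 0.1) gave 2 lower. No low-count filter gave 2 lower, and relative log expression factors or at least 10 counts in every library gave 0 lower (edgeR, 0 at an unadjusted p). DESeq2 gave 10 and 1 there. In NCI-H660, limma gave 2 lower with either pseudocount, and without the TPM filter 0 higher and 0 lower (3 and 2 at an unadjusted p), where DESeq2 gave 2 and 3. Between the lines limma gave 13 lower in its 3 forms, and in the interaction 3 positive and 5 negative without the TPM filter. With no minimum fold, 15 of 38 members were higher and 6 lower in C4-2B, against 2964 and 2931 of all 16866 genes. In NCI-H660, 3 of 38 were then higher and 7 lower, against 2041 and 2163 of all 16980 genes. With a minimum of 1, C4-2B had 3 and 0, NCI-H660 0 and 1 (1 higher at an unadjusted p), and the interaction 1 and 4. The cause of these differences was not tested beyond what each setting changes by construction.

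Over all genes, C4-2B calls of 1986 higher and 1369 lower became 1006 higher (log2(TPM + 1)), 1017 and 2141 (log2(TPM + 0.1)) and 593 higher (no TPM filter). The NCI-H660 calls of 1219 and 1526 became 786 and 916, 741 and 859, and 0 and 1 in the same order, and DESeq2 gave 950 lower. Lower calls between the lines (6537) became 3560, 3607 and 3743, and negative interaction calls (1880) became 1054, 914 and 705. Requiring 10 counts in every library left 4213 and 4299 calls between the lines. Pathway genes called in NCI-H660 fell from 4 and 6 to 0 and 0 without the TPM filter, and called negative in the interaction from 7 to 4 in DESeq2 and 3 without C4-2B MYCL replicate 2 or NCI-H660 shCtrl replicate 1.

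No member called on counts changed sign in any alternative. PDK3 in C4-2B, not called on counts, was called lower in limma at -0.56 (log2(TPM + 0.1)) and -0.54 (log2(TPM + 1), with and without the TPM filter). Of the isozyme ratios, none of which could be called, 5 changed sign in some setting: PFKM to PFKL in NCI-H660 (0.069 from counts without length, and -0.43 to 0.37 with a library left out), ENO3 to ENO1 in C4-2B (-0.41 to 0.052) and NCI-H660 (-0.14 to 0.037), SLC16A3 to SLC16A1 in C4-2B (-0.012 from counts without length, and -0.037 to 0.051) and PGM2 to PGM1 in NCI-H660 (-0.12 to 0.50, the lowest without shCtrl replicate 2). With ALDOA, LDHB and TIGAR summed with the gene that shares their exons, an alternative chosen after seeing the data, no call changed. Depth limits ALDOC in NCI-H660, FBP1 in C4-2B and LDHB in NCI-H660, where few counts were available.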
